A study of Mus musculus with 17 samples.

Results

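The 40 genes described here mark the blood vessels and connective tissue inside pancreatic islets. They comprise 23 endothelial genes, 12 genes of mural cells (pericytes and smooth muscle cells) and 5 stromal genes, and they were chosen by name, from gene symbols matched to the Ensembl identifiers of the deposited tables. All 40 were found among the 78239 identifiers of the first table and the 73212 of the second, and all 40 passed the filter on low counts in both.

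RNA of isolated islets was sequenced in bulk from 17 male mice. In the first experiment, wildtype and homozygous *Pax4* R192H littermates of C57BL6/N background (Pax4 HH in the labels, an R200H change in the mouse protein) were studied at 12 weeks of age on a standard chow diet (SCD) and at 16 weeks after 4 weeks of a high-fat diet (HFD), with 3 mice in each of the 4 groups. In the second, 3 *Pax4* βiKO mice (Pax4-BiKO, with *Pax4* floxed/floxed alleles and *Pdx1-CreERT2*) and 2 controls (*Pax4* floxed/floxed without Cre) were studied at 20 weeks after 8 weeks of HFD, and both had received tamoxifen at 7 to 9 weeks of age. Diet and age therefore changed together in the first experiment, and Cre was carried only by the βiKO mice in the second. Cre was driven by the *Pdx1* promoter, which is active in β cells and not in vascular cells. *Pax4* had 0 counts throughout and gave no check of the genotypes, whereas *Esr1*, part of which CreERT2 carries, was between 265 and 298 CPM (counts scaled to the TMM-normalized library size) in the βiKO mice and between 0.530 and 0.706 CPM in the controls.

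Islets are crossed by a dense bed of fenestrated capillaries. β cells secrete VEGF-A, which acts on the receptor KDR of the endothelium, and the endothelium in turn secretes PDGF-B, which holds PDGFRB-bearing pericytes on the capillary wall. Fibroblasts and vessel-wall cells supply matrix proteins such as decorin, lumican and fibronectin. In RNA from whole islets, fewer cells of a type and less RNA per cell cannot be told apart.

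Libraries of the first table held 24268150 to 42679673 counts and those of the second 28618787 to 31887499. A pair of unnamed genes made up 36.2% to 53.3% of each library in the first table. Each table was normalized and tested on its own. The summed level of 25 acinar cell markers, which measures exocrine tissue carried along with the islets, was between 13556 and 26429 CPM in the SCD groups and between 17116 and 26333 CPM in HFD-fed wildtype mice. In HFD-fed *Pax4* R192H mice it was 107170, 39141 and 40964 CPM. In the second table the same sum was 113253 and 25208 CPM in the controls and 87921, 17945 and 23404 CPM in the βiKO mice.

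Islet vessels and their pericytes were well represented in these libraries. Per kilobase of exon, the highest endothelial levels in the first table were those of *Esm1* (18.3 CPM per kb), which encodes the secreted proteoglycan endocan, and *Plvap* (14.1 CPM per kb), which encodes the diaphragm protein of fenestrae. The highest mural levels were those of *Rgs5* (22.0 CPM per kb), a regulator of G-protein signalling typical of pericytes, and *Mcam* (4.56 CPM per kb), the adhesion molecule CD146. Among the stromal genes, *Sparc* (10.8 CPM per kb) and *Dcn* (7.41 CPM per kb), which encodes decorin, were the highest. At the other end, the transcription factor gene *Sox17* (0.155 CPM per kb), the fibronectin gene *Fn1* (0.193 CPM per kb) and the tight junction gene *Cldn5* (0.26 CPM per kb) were low. *Sox17* had between 4 and 58 counts in a mouse, *Fn1* between 13 and 310 and *Cldn5* between 2 and 46. In HFD-fed *Pax4* R192H mouse 1, the 2 counts of *Cldn5* and the 1 count of the lumican gene *Lum* were under the floor of 3 counts used here.

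Of the 40 genes, 36 had at least 10 counts in every mouse of the first table and 39 of the second. *Thy1*, a fibroblast surface protein gene, was the only one with 0 counts in a mouse (HFD-fed wildtype mouse 3).

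**Figure D1:**
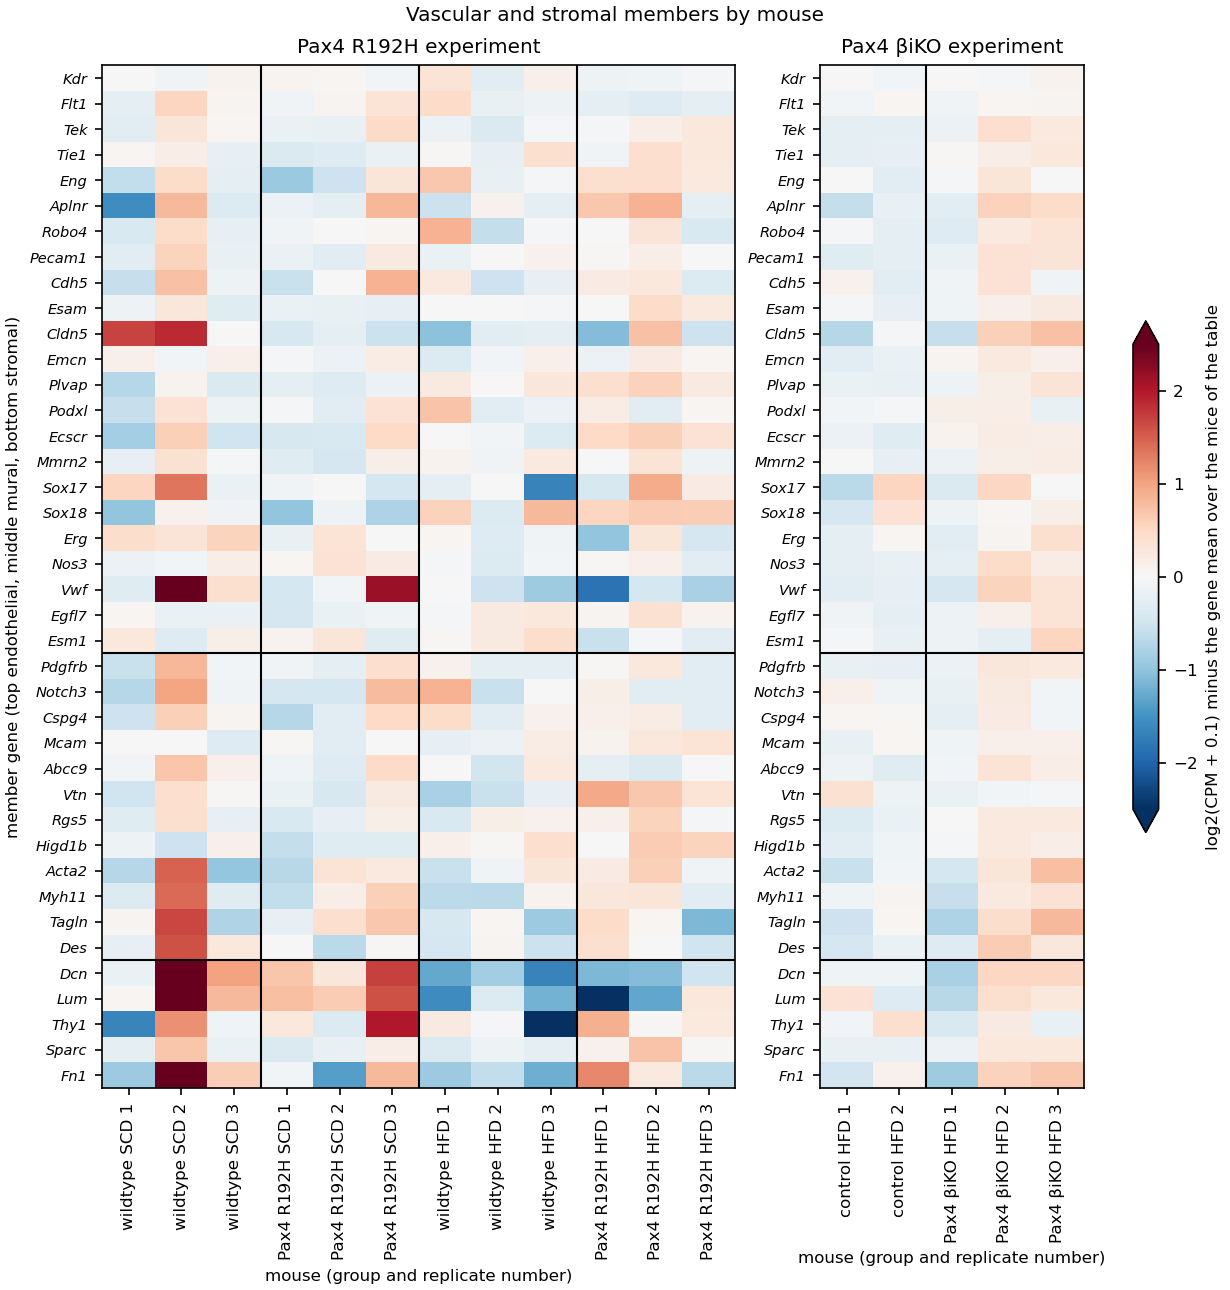
Levels of the 40 genes in each mouse, as log2(CPM + 0.1) minus the mean of the gene over the mice of its table; colours saturate at the ends of the bar, and black lines part the groups and the endothelial, mural and stromal genes. SCD-fed wildtype mouse 2 stood out as dark red for *Vwf*, *Dcn*, *Lum* and *Fn1*, and most genes differed little between the other mice.

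The spread among mice of the same group differed widely between the genes. In the first table, the median within-group standard deviation of log2 CPM was 0.29 for the endothelial, 0.45 for the mural and 1.25 for the stromal genes. The steadiest were *Egfl7*, which encodes a secreted endothelial protein, and *Kdr*, both at 0.16, followed by *Mcam* at 0.17 and the sialomucin gene *Emcn* at 0.18. The most variable were *Thy1* at 1.42, *Lum* (lumican) at 1.38, *Fn1* (fibronectin) at 1.25 and *Vwf* (von Willebrand factor, typical of larger vessels) at 1.16. In the second table, the medians were 0.24, 0.20 and 0.57, and *Kdr* was the steadiest at 0.06.

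Much of this spread came with a pair of SCD-fed mice. *Dcn* was 7.65, 69.6 and 17.4 CPM in SCD-fed wildtype mice 1, 2 and 3 and 14.1, 10.5 and 28.6 CPM in SCD-fed *Pax4* R192H mice 1, 2 and 3. *Vwf* was 1.75, 15.4 and 2.95 CPM in the wildtype mice and 1.60, 2.08 and 10.1 CPM in the *Pax4* R192H mice. For both genes, wildtype mouse 2 and *Pax4* R192H mouse 3 were the highest of their groups. *Acta2*, the smooth muscle actin gene, was 2.59, 12.3 and 2.17 CPM in the wildtype mice and 2.64, 5.501 and 5.19 CPM in the *Pax4* R192H mice, so that only wildtype mouse 2 stood apart.

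SCD-fed wildtype mouse 2 held the highest value of all 12 mice for 17 of the 40 genes (6 endothelial, 8 mural and 3 stromal), whereas it was the highest for 13.5% of all tested genes. These included the contractile genes *Acta2*, *Myh11*, *Tagln* and *Des*. Further stromal genes outside the 40, such as *Ogn* and *Fbln1*, summed to 83.9 CPM in this mouse, to 46.1 CPM in *Pax4* R192H mouse 3 and to between 16.1 and 19.7 CPM in the other SCD-fed mice. Markers of Schwann cells were also highest in these mice, at 14.4 and 10.5 CPM against 5.22 to 8.16 CPM in the others on SCD. So were duct cell markers, at 119 and 112 CPM against 88.0 to 96.0 CPM. Lymphatic endothelial markers were too, at 47.1 and 46.0 CPM against 16.0 to 30.9 CPM. Acinar markers did not move with them, at 13556 and 20595 CPM, and neither did leukocyte markers, which were between 110 and 171 CPM in all 3 SCD-fed wildtype mice and between 73.3 and 74.7 CPM in the *Pax4* R192H mice. The part of larger vessels or of tissue around the islets in these values was not tested. The summaries that rest on the SCD groups are therefore also given with 1 or both of these mice left out.

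Reference promoter sequences (RefSeq, GRCm38.p6, 250 bases before to 50 after each gene start) were on hand for 20 of the 40 genes, in 24 windows. They were searched on both strands for CAGGAAG, which holds the GGAA core bound by ETS factors such as ERG, itself 1 of the 40. It occurred in the windows of 4 of the 20 genes (*Egfl7*, *Emcn*, *Erg* and *Robo4*) and in those of 14.8% of all 27025 genes. For the CArG box, bound by the serum response factor in contractile genes, there was no match in the 24 windows, and 1.63% of all 32851 windows held one. At so low a rate no match is the likely outcome in 24 windows, so its absence says nothing about the contractile genes. These matches describe letters only. As examples from endothelial genes of surface or secreted proteins, matches in *Robo4* (a roundabout receptor), *Emcn* and *Egfl7* are shown as 30 bases each on the strand that carries the motif, with the motif in capitals. *Egfl7* held 3 matches, of which 1 is shown. The stretches lie before the RefSeq start that sets each window, which for *Robo4* and *Egfl7* is inside the gene as annotated by GENCODE, at chr9:37401911-37401940 (plus strand), chr3:137340893-137340922 (minus strand) and chr2:26580982-26581011 (plus strand).
Robo4: tgagggccaggCAGGAAGcatccgtttcct
Emcn: atgggatttgaaCAGGAAGagacccttctt
Egfl7: tgggagacaaaCAGGAAGgccatctctctg

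*Vtn*, the gene on which the genotype comparison on HFD turns, is shown with the bases before its annotated start. The stretch is chr11:78498870-78499090 on the plus strand of GRCm38.p6, and the capitals mark overlapping matches to TATAAA on both strands. They lie well before the annotated start and describe letters only, and their use as a TATA box was not tested. TATAAA occurred in the windows of 3 of the 20 genes (*Vtn*, *Flt1* and *Erg*) and in those of 15.7% of all 27025 genes.
Vtn: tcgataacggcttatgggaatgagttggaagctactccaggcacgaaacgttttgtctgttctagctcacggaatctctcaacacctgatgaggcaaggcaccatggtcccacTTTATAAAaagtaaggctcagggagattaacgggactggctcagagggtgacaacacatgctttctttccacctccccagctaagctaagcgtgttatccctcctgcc

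On the SCD, none of the 40 genes passed the test between *Pax4* R192H and wildtype islets. Differences were tested with edgeR's quasi-likelihood F-test, and a call needed an absolute log2 fold change above 0.5 and a p-value below 0.05 after Benjamini-Hochberg adjustment over all tested genes. By this rule 0 of the 40 genes were called, as were 0% of all 19137 tested genes, and DESeq2 also called 0 of the 40. The 95% confidence interval of the log2 difference lay wholly within 1 log2 unit of 0 for 24 of the 40 and within 0.5 for 8. Without adjustment, 2 of the 40 had a p-value below 0.05, compared with 3.29% of all tested genes. The endothelial receptor *Kdr* was 65.7, 61.3 and 69.6 CPM in wildtype mice and 68.6, 67.7 and 62.6 CPM in *Pax4* R192H mice, a range shared by both groups. *Rgs5* was 79.6, 129 and 85.5 CPM in wildtype and 74.9, 84.8 and 109 CPM in *Pax4* R192H mice, and the highest mouse of each group was again the one noted above.

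In this SCD comparison 11 of the 40 genes had a log2 fold change above 0 and 29 below, with a median of -0.16, while 49.3% of all tested genes were above 0 and their median was -0.0038. All 11 leukocyte markers (median -0.78) and all 5 erythroid markers were below 0 as well, with 0 called by edgeR's test, and their part was not tested. Of the leukocyte markers, 7 had an unadjusted p-value below 0.05, beside 3.29% of all tested genes, and 6 lay lower without overlap, beside 4.22%. The medians of the 40 by kind were -0.06 for the endothelial, -0.23 for the mural and -0.84 for the stromal genes. Their direction depended on single mice. Without wildtype mouse 2, 27 of the 40 were above 0 and the median was 0.12. Without *Pax4* R192H mouse 3, 4 were above 0, and without wildtype mouse 1, 5. With wildtype mouse 2 and *Pax4* R192H mouse 3 left out together, 17 were above 0 and the median was -0.04. The largest increase was that of *Thy1* (log2 fold change 0.87), and it was -0.25 without *Pax4* R192H mouse 3.

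*Cldn5*, which encodes the tight junction protein claudin-5, had the largest decrease and was 1 of the 2 genes with an unadjusted p-value below 0.05. It was 1.08, 1.23 and 0.266 CPM in wildtype mice and 0.178, 0.211 and 0.153 CPM in *Pax4* R192H mice, so that the groups did not overlap. The log2 fold change was -2.22 (SE 0.78, edgeR adjusted p = 1), from at most 46 counts in a mouse. The other was the intermediate filament gene *Des*, at 1.28, 4.67 and 1.81 CPM in wildtype and 1.50, 0.895 and 1.53 CPM in *Pax4* R192H mice (log2 fold change -0.99, SE 0.46, edgeR adjusted p = 1). Without wildtype mouse 2 it was -0.25. Groups of 1 of the 40 genes did not overlap and lay lower, beside 4.22% of all tested genes, and those of 0 lay higher, beside 3.62%.

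**Figure D2:**
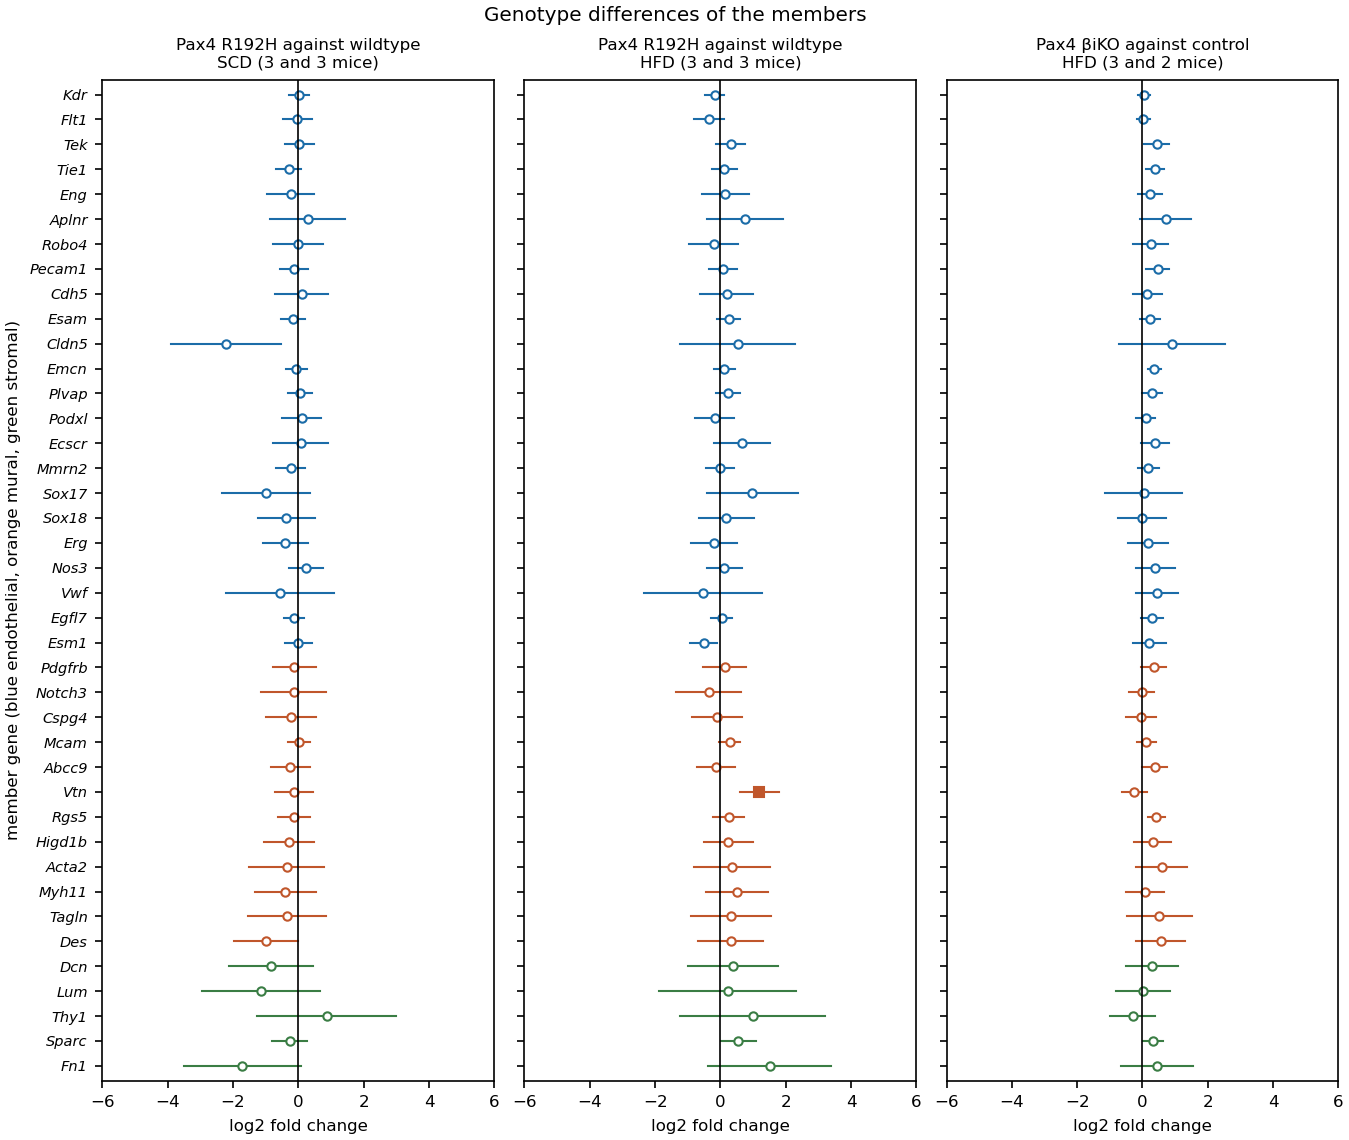
Log2 fold change (points) with 95% confidence interval (lines) of each of the 40 genes between genotypes, from edgeR's fits; filled squares mark called genes and open circles the others. *Vtn* on HFD, at 1.19, is the only filled square, and the βiKO panel has 35 of 40 points to the right of 0.

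On the HFD, *Vtn* rose in *Pax4* R192H islets and the other 39 genes were not called. *Vtn* encodes vitronectin, an adhesive glycoprotein that the liver releases into plasma and that pericytes also express. It was 2.43, 2.90 and 3.70 CPM in HFD-fed wildtype mice and 8.34, 6.88 and 5.46 CPM in HFD-fed *Pax4* R192H mice. Every *Pax4* R192H mouse was thus above every wildtype mouse, and on the SCD both genotypes lay between 3.03 and 5.82 CPM. The log2 fold change was 1.19 (SE 0.27, 95% confidence interval 0.60 to 1.78, edgeR adjusted p = 0.0414). The gene (ENSMUSG00000017344) spans positions 78499091 to 78502324 of chromosome 11 in GRCm38, on the plus strand. This 1 call among 40 stands beside 2.28% of all tested genes called, and 1.46% called higher.

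The call on *Vtn* was near its threshold. Leaving out any 1 of the 6 HFD-fed mice kept the log2 fold change between 1.03 and 1.37 and gave edgeR adjusted p-values between 0.0633 and 0.155. Acinar markers were higher in the same 3 *Pax4* R192H mice: all 25 had a log2 fold change above 0 and 7 were called. With the acinar level as a covariate, the log2 difference of *Vtn* was 0.91 (edgeR adjusted p = 0.671), and 0 of all tested genes were called. Duct cell markers summed to between 139 and 147 CPM in these mice and to between 90.7 and 108 CPM in HFD-fed wildtype mice, without overlap. Of the 8, 0 were called by edgeR's test and 4 had an unadjusted p-value below 0.05, all higher, beside 15.9% of all tested genes. The part of acinar and duct tissue in the level of *Vtn*, or in the levels of the other 39 genes on HFD, was not tested.

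A further pair had an unadjusted p-value below 0.05 on HFD, compared with 15.9% of all tested genes, and both were named after their values were seen. *Esm1* was 38.5, 43.9 and 51.0 CPM in wildtype and 25.6, 36.8 and 31.1 CPM in *Pax4* R192H mice, without overlap (log2 fold change -0.51, SE 0.19, edgeR adjusted p = 0.199). *Sparc*, which encodes a collagen-binding matrix protein, was 22.3, 26.2 and 23.96 CPM in wildtype and 30.6, 46.9 and 29.0 CPM in *Pax4* R192H mice, also without overlap (log2 fold change 0.55, SE 0.25, edgeR adjusted p = 0.289). Leaving out 1 mouse at a time gave -0.65 to -0.39 for *Esm1* and 0.30 to 0.68 for *Sparc*. In all, the groups of 4 genes did not overlap and lay higher (*Tek*, *Ecscr*, *Vtn* and *Sparc*) and those of 2 lay lower (*Flt1* and *Esm1*), beside 13% and 9.89% of all tested genes.

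Receptors of the VEGF and PDGF axes were not called on HFD, nor were the endothelial and pericyte markers *Pecam1* and *Rgs5*. *Kdr*, the main VEGF receptor, was 82.4, 54.6 and 71.4 CPM in wildtype and 60.2, 60.4 and 63.5 CPM in *Pax4* R192H mice, with a 95% confidence interval of the log2 difference from -0.47 to 0.12. *Flt1*, another VEGF receptor, was 44.8, 28.5 and 29.98 CPM in wildtype and 27.4, 26.0 and 27.7 CPM in *Pax4* R192H mice, lower without overlap, with an interval from -0.80 to 0.10. *Pdgfrb*, the pericyte receptor of PDGF-B, was 7.12, 5.66 and 5.63 CPM in wildtype and 6.798, 7.97 and 5.46 CPM in *Pax4* R192H mice, with an interval from -0.53 to 0.79. *Pecam1*, the adhesion molecule CD31, was 26.0, 29.0 and 31.5 CPM in wildtype and 30.1, 32.8 and 29.2 CPM in *Pax4* R192H mice, with an interval from -0.34 to 0.52. For *Rgs5*, at 75.4, 109 and 106 CPM in wildtype and 107, 145 and 95.7 CPM in *Pax4* R192H mice, it was -0.22 to 0.74. Of these 5 genes, all but *Flt1* had groups that overlapped. Over the 40 genes, the interval lay wholly within 1 log2 unit of 0 for 22, and its median width was 1.41 log2 units.

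By direction, 29 of the 40 genes had a log2 fold change above 0 on HFD, with a median of 0.21, beside 48.6% and -0.014 for all tested genes. They were 15 of the 23 endothelial genes (median 0.12), 9 of the 12 mural genes (median 0.27) and all 5 stromal genes (median 0.55). Leaving out 1 mouse at a time gave 25 to 31 above 0. Without *Pax4* R192H mouse 2 the median over the 40 was 0.10, with 0.028 for the endothelial and 0.13 for the mural genes, and without wildtype mouse 2 the endothelial median was 0.0275. β cell markers differed in the same comparison: of 10 tested, 2 were called lower by edgeR's test, beside 2.28% of all tested genes called. Of the 10, 6 had an unadjusted p-value below 0.05 (median log2 fold change -0.39), beside 15.9% of all tested genes. The summed level of these markers lay higher without overlap, between 99293 and 110484 CPM against 65469 to 93847 CPM, and their part was not tested. The largest increase was that of *Fn1*, at 0.507, 0.648 and 0.391 CPM in wildtype and 2.54, 1.26 and 0.617 CPM in *Pax4* R192H mice (log2 fold change 1.51, SE 0.88, edgeR adjusted p = 0.433). Without *Pax4* R192H mouse 1 it was 0.86, and with the acinar covariate 0.59. The wildtype values of *Fn1* rest on 19, 19 and 15 counts. The largest decrease was that of *Vwf*, at 2.19, 1.50 and 1.15 CPM in wildtype and 0.537, 1.59 and 1.20 CPM in *Pax4* R192H mice (log2 fold change -0.54, edgeR adjusted p = 0.820). It was -0.21 without *Pax4* R192H mouse 1, -0.25 without wildtype mouse 1 and 0.12 with the acinar covariate. The groups overlapped for both.

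Partner genes of the same signalling axes were listed beside the 40. Of 23 ligands of their receptors (VEGF, angiopoietin, PDGF, Notch, SLIT, apelin and TGFβ families), 18 were tested. On HFD 0 were called by edgeR's test, and 2 had an unadjusted p-value below 0.05, beside 15.9% of all tested genes. *Vegfa* was 181, 157 and 166 CPM in wildtype and 130, 140 and 148 CPM in *Pax4* R192H mice, without overlap (log2 fold change -0.27, SE 0.14, edgeR adjusted p = 0.380). *Apln*, which encodes the ligand of the apelin receptor *Aplnr*, was 0.773, 0.716 and 0.703 CPM in wildtype and 1.50, 2.39 and 1.23 CPM in *Pax4* R192H mice (log2 fold change 1.22, SE 0.37, edgeR adjusted p = 0.107). Of 12 further receptors, 19 further endothelial, 15 further mural and 15 further stromal genes tested, 0 were called. Among lymphatic endothelial markers, *Reln* (reelin) fell, from 11.9, 4.13 and 6.72 CPM in wildtype to 1.15, 0.923 and 1.54 CPM in *Pax4* R192H mice (log2 fold change -2.64, SE 0.40, edgeR adjusted p = 0.00566). The other 4 lymphatic markers tested were not called. Of the 5, 4 had a log2 fold change below 0 and 1 above, with a median of -0.996. Unadjusted p-values were below 0.05 for 2, both lower, beside 15.9% of all tested genes. Groups of 2 did not overlap and lay lower, beside 9.89%. Summed, the 5 lay between 21.4 and 45.3 CPM in wildtype and between 14.96 and 19.4 CPM in *Pax4* R192H mice, without overlap. This sum includes *Reln* and was not tested.

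The interaction of genotype and diet asks whether the genotype difference on HFD differed from that on SCD. For the 40 genes 0 were called by edgeR's test and 0 by DESeq2, beside 0.131% of all tested genes, and 5 had an unadjusted p-value below 0.05, beside 11.2% of all tested genes. These 5 (*Cldn5*, *Sox17*, *Vtn*, *Sparc* and *Fn1*) all had positive interaction terms. The term of *Vtn* was 1.33 on the log2 scale (SE 0.39, edgeR adjusted p = 0.197). The largest was that of *Fn1* at 3.23 (SE 1.21, edgeR adjusted p = 0.327), and it was 1.54 without SCD-fed wildtype mouse 2 and 2.21 without both SCD-fed mice that stood apart. Wildtype mouse 2 held 8.31 CPM of *Fn1* against 0.505 and 1.64 CPM in the others of its group. Of the 40 terms, 33 were above 0 with a median of 0.27, beside 49.2% of all tested genes. Without SCD-fed wildtype mouse 2, 19 were above 0 and the median was -0.03, and with *Pax4* R192H mouse 3 left out as well 27 were above 0 and the median was 0.22. All 25 acinar markers had terms above 0 (median 1.72, 22 with an unadjusted p-value below 0.05). All 11 leukocyte and all 5 erythroid markers tested also had terms above 0. Of these 3 lists 0 genes were called by edgeR's test, and their part was not tested.

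**Figure D3:**
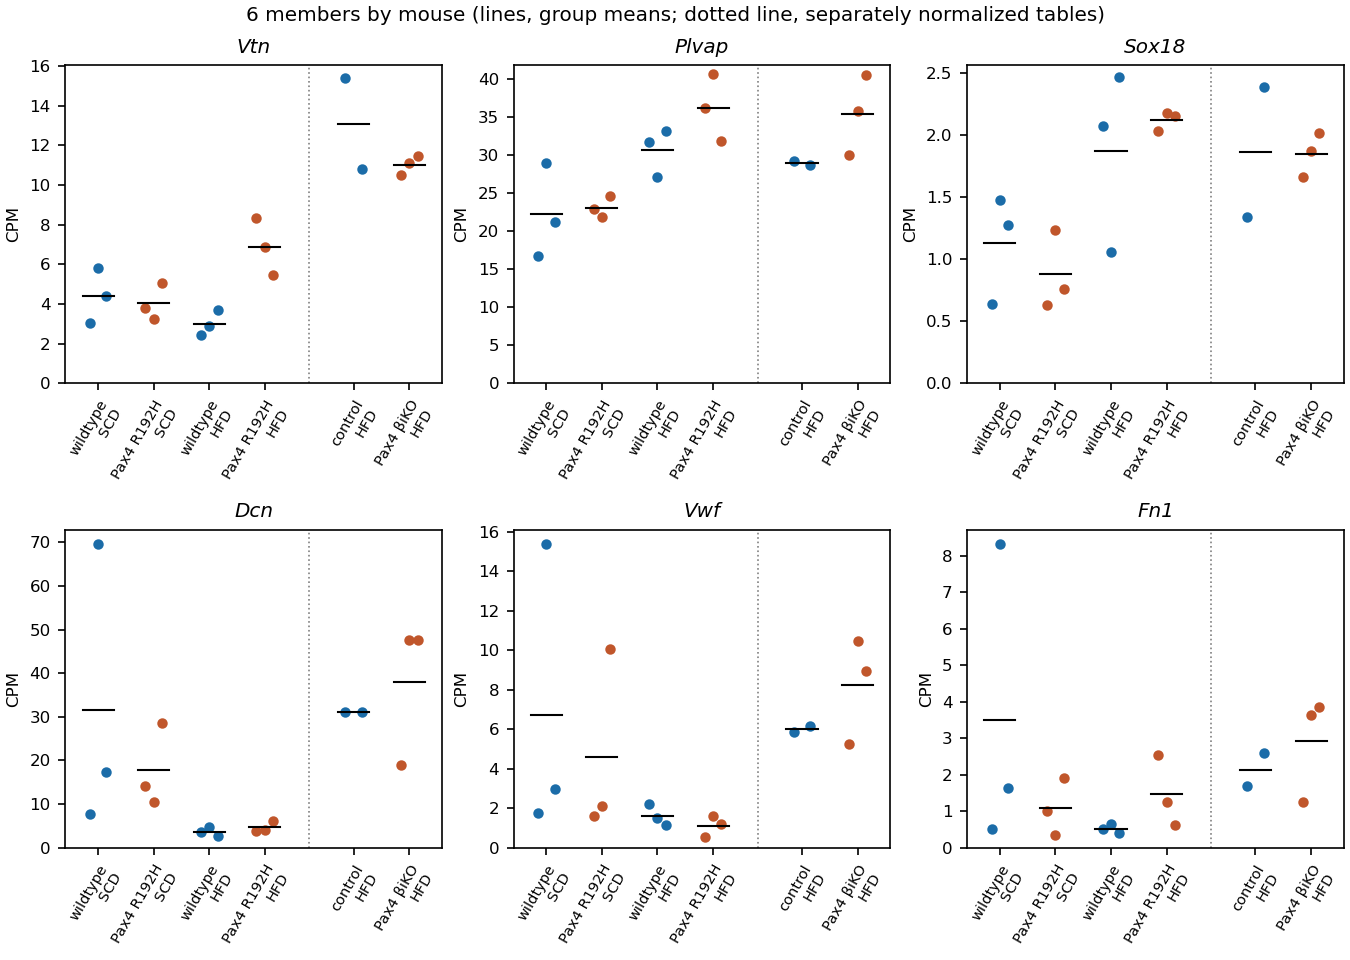
CPM of 6 genes in each mouse (points) with group means (lines); blue marks wildtype or control and orange *Pax4* R192H or βiKO, and the dotted line parts the separately normalized tables. *Vtn* in HFD-fed *Pax4* R192H mice lay between 5.46 and 8.34 CPM, above the wildtype mice on HFD, while the SCD means of *Dcn*, *Vwf* and *Fn1* were pulled up by single mice.

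Between the SCD at 12 weeks and the HFD at 16 weeks, none of the 40 genes passed the test in wildtype islets, and the lowest fold changes were those of stromal genes. By edgeR's test 0 were called, beside 0.371% of all tested genes, and 8 had an unadjusted p-value below 0.05, of which *Plvap* was higher and 7 were lower, beside 15.2% of all tested genes. DESeq2 called *Dcn* alone. *Dcn* was 7.65, 69.6 and 17.4 CPM on SCD and 3.49, 4.67 and 2.63 CPM on HFD, without overlap (log2 fold change -3.14, SE 0.65, edgeR adjusted p = 0.060). Leaving out SCD-fed wildtype mouse 2 gave -1.81 (edgeR adjusted p = 0.142), and leaving out mouse 1, the lowest of the group, gave -3.59 (edgeR adjusted p = 0.0235). *Lum* had the largest decrease, from 1.11, 12.3 and 1.96 CPM to 0.293, 0.819 and 0.417 CPM (log2 fold change -3.34, SE 0.95, edgeR adjusted p = 0.126), and without SCD-fed mouse 2 it was -1.61 (edgeR adjusted p = 0.549).

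All 5 stromal genes had a log2 fold change below 0 in wildtype islets, with a median of -2.76, as did all 15 further stromal genes, with a median of -2.15. Of these 15, 0 were called by edgeR's test and 10 had an unadjusted p-value below 0.05, to be read beside the same 15.2%. Without SCD-fed wildtype mouse 2, these medians were -1.08 and -0.70, with 4 of 5 and 13 of 15 genes below 0. The medians of the endothelial and mural genes were -0.02 and -0.32, and 0.20 and 0.14 without that mouse. Over the 40, 14 were above 0 with a median of -0.15, and without that mouse 24 with a median of 0.17. In the whole table, 51.1% of genes were above 0 and the median was 0.011. Groups of *Cldn5*, *Erg*, *Dcn* and *Lum* did not overlap and lay lower on HFD, and those of 0 genes lay higher, beside 9.46% and 8.47% of all tested genes. Leukocyte markers were lower as well, between 74.1 and 84.6 CPM on HFD against 110 to 171 CPM on SCD (2 of 11 were called lower by edgeR's test). Also below 0 were 7 of 8 duct (median -0.60) and 6 of 7 Schwann cell markers (median -0.59). Above 0 were 19 of 25 acinar and 8 of 10 β cell markers. The β cell sum lay between 65469 and 93847 CPM on HFD against 45090 to 59369 CPM on SCD. Of these other lists 0 markers were called, and the part of all these cells in these differences was not tested.

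In *Pax4* R192H islets, the fenestral gene *Plvap* and the transcription factor gene *Sox18* rose between SCD and HFD. *Plvap* was 22.9, 21.8 and 24.6 CPM on SCD and 36.3, 40.7 and 31.8 CPM on HFD, and the groups did not overlap. The log2 fold change was 0.65 (SE 0.18, edgeR adjusted p = 0.0228). *Sox18*, which encodes an endothelial factor of the SOX family, was 0.636, 1.24 and 0.763 CPM on SCD and 2.04, 2.18 and 2.16 CPM on HFD, again without overlap (log2 fold change 1.27, SE 0.41, edgeR adjusted p = 0.0477). These 2 calls, both higher, stand beside 15.7% of all tested genes called, and beside 9.75% called higher. In wildtype islets the same 2 genes gave log2 fold changes of 0.46 (SE 0.18, edgeR adjusted p = 0.231) and 0.72. Leaving out 1 wildtype mouse at a time gave 0.30 to 0.70 for *Plvap* and 0.45 to 1.00 for *Sox18*. Neither term of the interaction was called, so that a difference between the genotypes in these changes was not shown. In GRCm38, *Plvap* (ENSMUSG00000034845) spans positions 71497765 to 71511752 of chromosome 8 and *Sox18* (ENSMUSG00000046470) positions 181669836 to 181671640 of chromosome 2, both on the minus strand.

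Both calls were near the threshold. That of *Plvap* was lost without *Pax4* R192H mouse 1 or 2 on SCD or mouse 1 or 2 on HFD, with edgeR adjusted p-values between 0.0532 and 0.0994, and kept without mouse 3 of either diet. That of *Sox18* was kept only without SCD-fed mouse 2 (edgeR adjusted p = 0.0425) and otherwise gave adjusted p-values up to 0.137. Without the 2 SCD-fed mice that stood apart, *Plvap* (edgeR adjusted p = 0.0133) was still called and *Sox18* (edgeR adjusted p = 0.12) was not, while *Vtn*, *Dcn* and the TGFβ co-receptor gene *Eng* were called (edgeR adjusted p = 0.0376, 0.0211 and 0.0214). With the acinar level as a covariate the log2 fold changes were 0.79 and 1.64, and the adjusted p-values were 0.25 and 0.287. Of the 25 acinar markers, 23 were called higher on HFD (median log2 fold change 1.84), and of 10 β cell markers 3 were called higher and 2 lower by edgeR's test. Duct cell markers summed to between 88.0 and 112 CPM on SCD and between 139 and 147 CPM on HFD, with 2 of 8 called higher, and erythroid markers to between 23.3 and 39.4 and between 36.0 and 155 CPM, with 1 of 5 called higher by edgeR's test. The part of these cells in these values was not tested.

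Another 7 of the 40 genes had an unadjusted p-value below 0.05 in *Pax4* R192H islets, compared with 32.4% of all tested genes. Higher on HFD were *Tie1* (log2 fold change 0.50), an angiopoietin co-receptor, *Esam* (0.44), an endothelial adhesion molecule, *Egfl7* (0.41), *Vtn* (0.77) and the pericyte gene *Higd1b* (0.90), with edgeR adjusted p-values between 0.0657 and 0.0984. Lower were *Vwf* (-2.03, edgeR adjusted p = 0.110) and *Dcn*, which was 14.1, 10.5 and 28.6 CPM on SCD and 3.90, 3.99 and 6.05 CPM on HFD (log2 fold change -1.92, SE 0.63, edgeR adjusted p = 0.051). DESeq2 called *Dcn* and *Vtn*, next to *Plvap* and *Sox18*. Without SCD-fed *Pax4* R192H mouse 3 the log2 fold changes were -0.73 for *Vwf* and -1.40 for *Dcn*. The HFD-fed *Pax4* R192H mice are the same animals as in the genotype comparison on HFD, so the values of *Vtn* in both are not independent.

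Over the 40 genes in *Pax4* R192H islets, 25 were above 0 with a median of 0.12, beside 46.4% and -0.06 for all tested genes. Leaving out 1 mouse at a time gave 20 to 31 above 0. Without SCD-fed mouse 3 the median was 0.32, and that of the 5 stromal genes was 0.52 in place of -0.60. Without SCD-fed mouse 1 the median over the 40 was 0.016. The groups of 8 genes did not overlap and lay higher and those of 4 lay lower, beside 21.3% and 20.6% of all tested genes. Among the listed partners, *Apln* rose (log2 fold change 1.22, edgeR adjusted p = 0.0387), as did *Ednrb*, an endothelin receptor gene (0.74, edgeR adjusted p = 0.00735). Further endothelial genes that rose were *Clec14a* (0.64, edgeR adjusted p = 0.0278) and *Gpihbp1* (1.07, edgeR adjusted p = 0.0229), which encodes the capillary anchor of lipoprotein lipase. Further stromal genes that fell were *Fbln1* (-2.81, edgeR adjusted p = 0.0406) and *Ogn* (-2.88, edgeR adjusted p = 0.0308), and the lymphatic marker *Reln* fell by 2.00 on the log2 scale (edgeR adjusted p = 0.00458). Without SCD-fed *Pax4* R192H mouse 3 the median of the 15 further stromal genes was -0.43 in place of -1.35. The genes called are 1 of 18 ligands, 1 of 12 receptors, 2 of 19 endothelial, 0 of 15 mural and 2 of 15 stromal genes tested, and each share is below the 15.7% of all tested genes called. Of the lymphatic markers 1 of 5 tested (20%) was called, above that share. All 5 were below 0 (median -0.88), 3 of them without overlap, beside 20.6% of all tested genes.

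**Figure D4:**
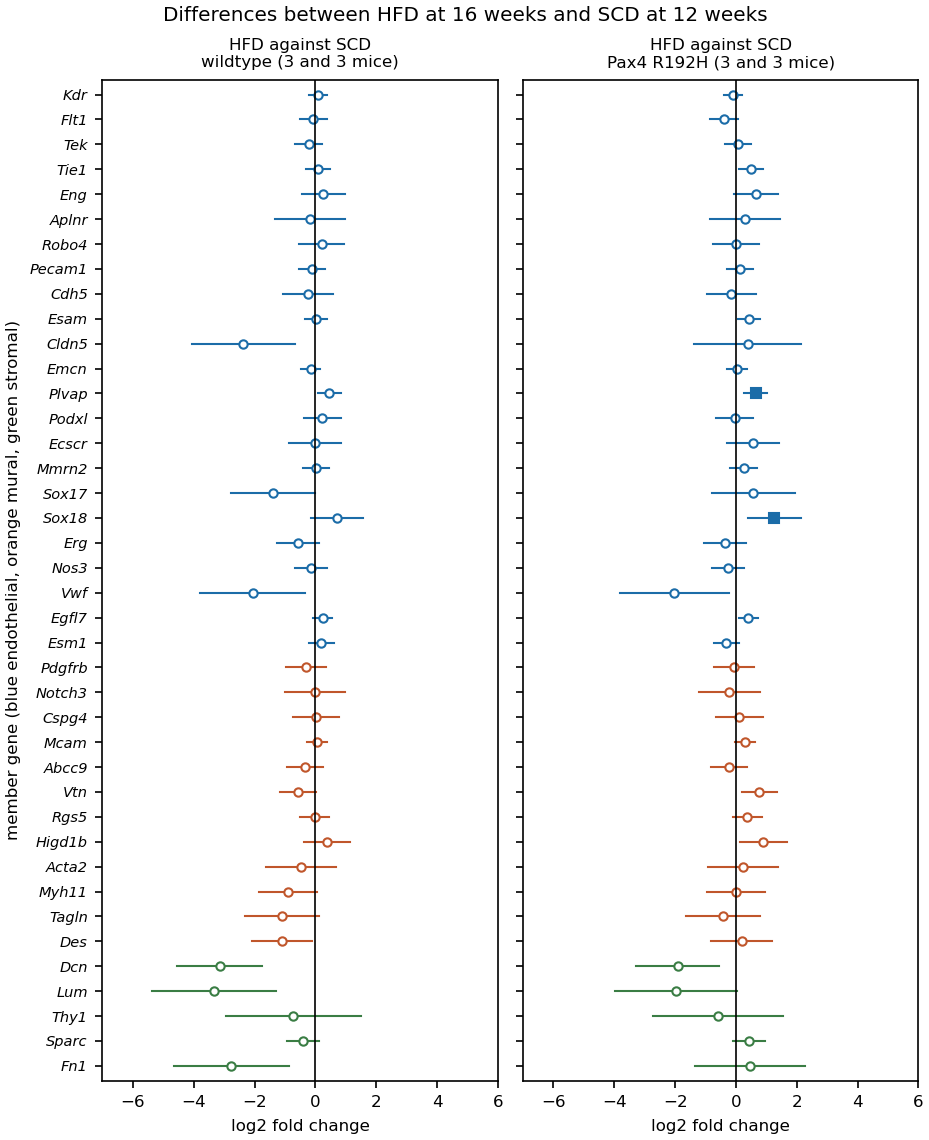
Log2 fold change (points) with 95% confidence interval (lines) of each of the 40 genes between HFD at 16 weeks and SCD at 12 weeks in each genotype; filled squares mark called genes. *Plvap* and *Sox18* are filled in the *Pax4* R192H panel, and *Dcn* and *Lum* have the leftmost points of the stromal genes in both panels.

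In islets of *Pax4* βiKO mice, most vascular genes lay somewhat above the controls and 0 of the 40 were called by edgeR's test, beside 0.0893% of all 20167 tested genes. DESeq2 also called 0. Of the 40, 35 had a log2 fold change above 0 with a median of 0.29, while 51.5% of all tested genes were above 0 and their median was 0.011. They were 22 of the 23 endothelial genes (median 0.25), 9 of the 12 mural genes (median 0.33) and 4 of the 5 stromal genes (median 0.29). Leaving out 1 mouse at a time gave 29 to 38 above 0. The median over the 40 was 0.19 without βiKO mouse 3 and 0.175 in a blocked fit on replicate number, and the stromal median was 0.087 without βiKO mouse 2 and 0.11 without βiKO mouse 3. Groups did not overlap and lay higher for 11 genes, beside 15.9% of all tested genes, and lay lower for 0, beside 16.7%. With 3 mice against 2, a group that lies wholly above the other is a weak criterion.

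Among these genes, 6 had an unadjusted p-value below 0.05, compared with 12.8% of all tested genes, and all 6 were higher in βiKO islets. *Emcn*, which encodes the capillary sialomucin endomucin, was 51.0 and 54.5 CPM in the controls and 64.2, 72.0 and 66.7 CPM in the βiKO mice (log2 fold change 0.36, SE 0.09, edgeR adjusted p = 0.219). *Rgs5* was 168 and 192.1 CPM in the controls and 215, 255 and 255 CPM in the βiKO mice (log2 fold change 0.42, SE 0.11, edgeR adjusted p = 0.248). *Pecam1* was 43.6 and 45.5 CPM against 47.9, 69.3 and 67.2 CPM (log2 fold change 0.46, SE 0.16, edgeR adjusted p = 0.298). For all 3 the groups did not overlap, by a margin of 2.4 CPM or more.

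The other 3 of the 6 were the angiopoietin receptor *Tek* (log2 fold change 0.44), its partner *Tie1* (0.38) and *Sparc* (0.32), with edgeR adjusted p-values between 0.275 and 0.379. *Plvap* was 29.2 and 28.7 CPM in the controls and 30.02, 35.9 and 40.6 CPM in the βiKO mice. *Kdr* was 90.5 and 85.7 CPM in the controls and 89.9, 87.8 and 96.0 CPM in the βiKO mice, with overlap. The largest increase was that of *Cldn5* (log2 fold change 0.91, SE 0.70, edgeR adjusted p = 0.626), which had at most 19 counts in a mouse, and the largest decrease that of *Thy1* (-0.29). Leaving out 1 mouse at a time gave -0.515 to -0.031 for *Thy1*, and 0.51 to 1.49 for *Cldn5* in the 3 fits that still tested it. *Vtn*, called in *Pax4* R192H mice on HFD, was 15.4 and 10.8 CPM in the controls and 10.5, 11.1 and 11.5 CPM in the βiKO mice (log2 fold change -0.25), and the groups overlapped.

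βiKO mice 2 and 3 carried most of the higher values. They were the highest of the 5 mice for 20 and 16 of the 40 genes, whereas they were the highest for 15.1% and 26.4% of all tested genes, and βiKO mouse 1 was the highest for 0 of the 40 (17.8% of all tested genes). The 23 endothelial genes summed to 492 and 483 CPM in the controls and to 511, 588 and 613 CPM in the βiKO mice, and the 12 mural genes to 265 and 291 CPM and to 302, 375 and 377 CPM. Acinar sums were highest in control mouse 1 and βiKO mouse 1, and all 25 acinar markers had a log2 fold change below 0 (median -0.68). Of 10 β cell markers, 7 were below 0 and 7 had an unadjusted p-value below 0.05, beside 12.8% of all tested genes. Groups did not overlap for 6 of these markers that lay lower and 2 that lay higher, beside 16.7% and 15.9% of all tested genes. Duct cell markers summed to 229 and 227 CPM in the controls and to 286, 296 and 346 CPM in the βiKO mice, without overlap, although 3 of the 8 genes had a log2 fold change above 0. Also above 0 were 10 of 11 leukocyte, 6 of 8 Schwann cell and all 5 erythroid markers, whose sums overlapped between the groups, and 0 markers of these 6 lists were called by edgeR's test. The part of these cells and of exocrine tissue in the vascular levels was not tested. With the acinar level as a covariate 30 of the 40 genes were above 0 with a median of 0.19, and with control mouse 1 and βiKO mouse 1 left out 36 were above 0 with a median of 0.39. That leaves 1 control, which is assumed to vary like the βiKO mice.

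Partner genes in the βiKO comparison were not called either. By edgeR's test 0 of 19 ligands, 0 of 12 receptors, 0 of 19 further endothelial, 0 of 15 further mural and 0 of 16 further stromal genes were called. In the same order, 0, 3, 4, 5 and 1 of them had an unadjusted p-value below 0.05, beside 12.8% of all tested genes. The further endothelial genes *Clec14a* (log2 fold change 0.53, edgeR adjusted p = 0.197) and *Gpihbp1* (0.48, edgeR adjusted p = 0.264) were among these. *Vegfa* was 230 and 203 CPM in the controls and 176, 195 and 212 CPM in the βiKO mice, with overlap (log2 fold change -0.16). *Reln* was 5.76 and 5.67 CPM in the controls and 1.53, 3.42 and 2.08 CPM in the βiKO mice (log2 fold change -1.28, SE 0.32, edgeR adjusted p = 0.233). Of the 6 lymphatic markers 3 were above 0 and 3 below, with a median of -0.0047, and 0 were called. The 3 below 0 had unadjusted p-values below 0.05 and groups without overlap, beside 12.8% and 16.7% of all tested genes, and the 3 above 0 had neither. Summed, the 6 were 69.4 and 59.8 CPM in the controls and 46.3, 58.8 and 38.3 CPM in the βiKO mice, lower without overlap.

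**Figure D5:**
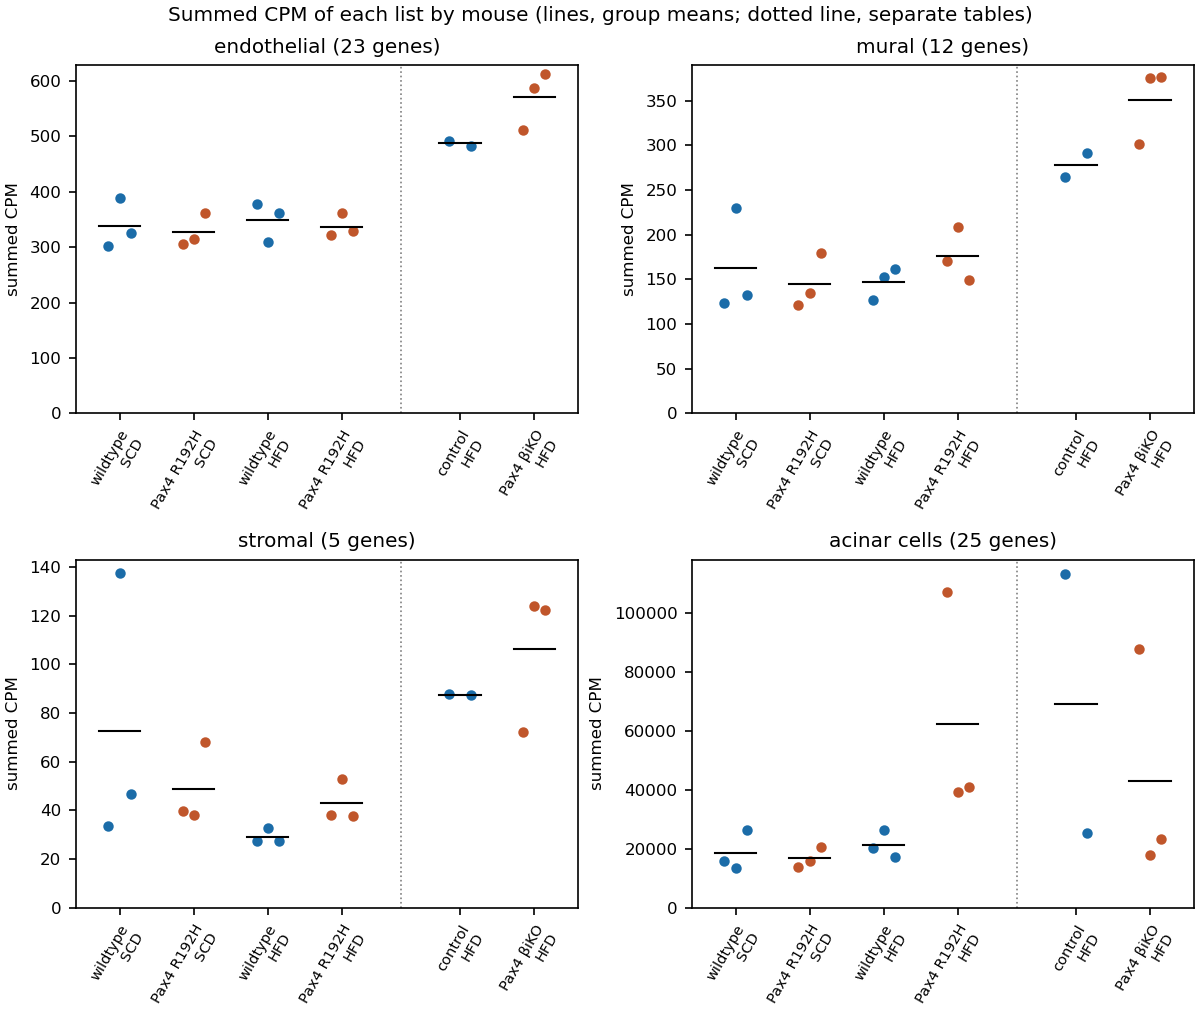
Summed CPM of the endothelial, mural and stromal genes and of the 25 acinar markers in each mouse (points) with group means (lines); blue marks wildtype or control, orange *Pax4* R192H or βiKO, and the dotted line parts the tables. Endothelial sums lay between 303 and 388 CPM in every mouse of the first table, and SCD-fed wildtype mouse 2 stood apart in the mural and stromal panels.

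Summed over the 23 genes, the endothelial level on SCD lay between 303 and 388 CPM in wildtype and between 306 and 361 CPM in *Pax4* R192H mice. On HFD it lay between 309 and 378 CPM in wildtype and between 321 and 362 CPM in *Pax4* R192H mice, so that all 4 groups overlapped. The mural sum lay between 124 and 230, 121 and 180, 127 and 162, and 149 and 209 CPM in the same order. The stromal sum was between 33.4 and 138 CPM in SCD-fed wildtype and between 38.1 and 68.2 CPM in SCD-fed *Pax4* R192H mice. It was between 27.2 and 32.9 CPM in HFD-fed wildtype and between 37.6 and 53.0 CPM in HFD-fed *Pax4* R192H mice, the only pair of groups in the first table without overlap between genotypes in these 3 sums. The sum is led by *Sparc*, which on HFD was the only 1 of the 5 genes with groups that did not overlap, and it was not tested.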

How the data were processed

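Islet RNA-seq of 17 mice was analysed from 2 tables, with groups taken from the sample titles. For these the authors made stranded total RNA libraries, used STAR (2.7.1) for alignment to mm10 and RSEM (1.3.3) with tximport for abundance. What they deposited are expected counts of each gene, not scaled for depth. Whether counting used strand is not given in the sources used here. Counts were rounded, and symbols came from GENCODE M21, which matched 65.8% and 66.7% of identifiers.

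Each table was fitted with edgeR 4.0.16 under R 4.3.3, using TMM, filterByExpr with a minimum count of 10, a coefficient per group and the quasi-likelihood F-test. DESeq2 1.42.0 was an alternative, and the steps were tested on simulated data. The other alternatives are given with their effect in the closing section. The 40 genes and the other lists were chosen with earlier results of these data known. Named are called genes, the 2 highest per kilobase in each list, the largest changes in each direction and, after their values were seen, those with unadjusted p-values below 0.05 and some partner genes. Replicate numbers did not pair the mice. Titles call them biological replicates. Floors and intervals of counts cover counting error only. No p-value was computed over a list.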

Additional observations from a re-analysis of the deposited data

How the results depend on the processing

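With no filter on low counts the number called was 261 on SCD and 1279 on HFD between genotypes (0 and 437 in the report), 708 for the interaction (25), 924 between diets in wildtype (71) and 697 in βiKO (18). DESeq2 gave 23, 920, 311, 545 and 250 in the same order. At least 10 counts in every mouse gave 80 for the interaction and 115 between diets in wildtype. The latter split was 39 higher and 76 lower, against 39 and 32 in the report and 182 and 363 with DESeq2. Models of only the groups compared gave 1 on SCD and 1 between diets in wildtype. An acinar covariate gave 0 on HFD, 0 for the interaction, 39 and 74 between diets in wildtype and *Pax4* R192H. Leaving out the 2 acinar-rich mice gave 2 in βiKO, with 1 control left that is assumed to vary like the βiKO mice.

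The replicate number as a block gave 147 genes on HFD, 0 for the interaction, 22 between diets in wildtype and 88 in βiKO. Deviations of same-numbered mice correlated above 0.1 in 5 of 18 pairs of the first table (-0.30 to 0.19), so the numbers were not read as pairs. Among the 40, the block left 0 called on HFD and 1 (*Plvap*) between diets in *Pax4* R192H, and moved no other count of calls among them.

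Among the 40, no filter gave 2 called lower on SCD, 3 higher on HFD, 4 higher for the interaction, 6 lower between diets in wildtype, and 4 higher and 3 lower in *Pax4* R192H. The acinar covariate gave 0 higher on HFD and 0 higher between diets in *Pax4* R192H. *Dcn* was the 1 gene called lower between diets in wildtype with at least 10 counts in every mouse and with DESeq2. In *Pax4* R192H it was the 1 called lower with 10 counts, without the 2 largest genes, with DESeq2, with only the groups compared and without the 2 SCD-fed mice. Leaving those 2 mice out, an alternative added after seeing the data as was that on acinar-rich mice, put 17 of 40 above 0 on SCD and 24 between diets in wildtype. RLE size factors changed no call among the 40. Signs were followed singly only for a part of the 40, such as genes called, with the largest changes or with unadjusted p-values below 0.05. Among these, signs turned for *Thy1* on SCD without *Pax4* R192H mouse 3 (-0.25, with 1.92 at the other end). They also turned for *Vwf* on HFD with the acinar covariate (0.12). The counts above 0 in the next paragraph show that more signs turned among the 40.

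Leaving out each mouse in turn, genes called ranged from 93 to 498 on HFD, 0 to 101 for the interaction, 5 to 125 between diets in wildtype, 1706 to 2248 in *Pax4* R192H and 2 to 28 in βiKO. Of the 40, 4 to 27 were above 0 on SCD, 19 to 36 for the interaction and 10 to 24 between diets in wildtype. Without SCD-fed wildtype mouse 2 these were 27, 19 and 24. Called higher were 0 to 0 on HFD and 0 to 1 between diets in *Pax4* R192H, and called lower between diets in wildtype 0 to 1. The causes were not tested. Precision was limited by 2 or 3 mice a group, most for *Thy1*, *Lum*, *Fn1* and *Vwf*, which varied by over 1 log2 unit (SD) within groups of the first table.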
